A study of Mus musculus with 8 samples.

Results

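The 7 genes described here carry out MHC class II antigen presentation: Cd74, H2-Aa, H2-Ab1, H2-Eb1, H2-DMa, H2-DMb1 and Ciita. They were chosen by symbol, and each symbol matched a single identifier among the 55414 genes of the count table. The table held 8 libraries of colon cells from mice aged 4 weeks, 4 of WT genotype and 4 of Emb knockdown genotype, and the labels name no treatment other than the cell sort in either group. Antibodies to CD24 and CD56 were used to sort cells labelled enteric neurons (neurons of the intrinsic nervous system of the gut) into tubes of about 250 cells. A Smart-seq kit, which amplifies RNA from very small inputs, was used for library construction. The sources used here give neither the strain nor how, or in which cells, Emb was lowered. The labels name 4 mice of each genotype but do not tie each tube to its own mouse, and the p-values therefore describe variation among libraries that can include technical variation. The study's title names neuronal development in the gut as its subject and Emb, which encodes the membrane glycoprotein embigin, as the gene lowered.

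Class II molecules display peptides from ingested material to CD4 T cells. An alpha and a beta chain (H2-Aa with H2-Ab1 for the I-A molecule, an alpha chain with H2-Eb1 for I-E) assemble in the endoplasmic reticulum around the invariant chain, encoded by Cd74. Lysosomal proteases then cut the invariant chain down to a short fragment in the groove, and H2-DM, a dimer of H2-DMa and H2-DMb1, releases that fragment so that a peptide can bind. Ciita encodes the class II transactivator, which binds no DNA itself but is recruited by factors seated on the X and Y boxes of class II promoters. Macrophages, dendritic cells and B cells of the gut wall are the usual sources of these transcripts. Other cells, enteric glia among them, can switch them on in response to interferon gamma.

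The shared promoter layout is shown here because these genes are regarded as 1 regulatory group. RefSeq promoter windows on GRCm38.p6 (250 bases before to 50 after the start) were at hand for 4 of the 7 members; Cd74, H2-Ab1 and Ciita had no entry. The windows were searched on both strands for the letters GNAAC, the core of the X box, followed after 24 to 34 bases by ATTGG, the Y box that NF-Y binds. These letters were chosen after the sequences had been read. The pattern was found in H2-Aa, H2-Eb1 and H2-DMb1, and in neither of the 2 windows of H2-DMa. Of all 32851 windows of that length, 1.79% held it, while 37.4% held the Y box letters alone. Each stretch is written 5′ to 3′ on the strand of its gene, with the X core and the Y box in capitals.
H2-Aa, chr17:34287852-34287924, minus strand: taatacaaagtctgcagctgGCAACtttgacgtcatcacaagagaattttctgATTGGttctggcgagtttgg
H2-Eb1, chr17:34305756-34305827, plus strand: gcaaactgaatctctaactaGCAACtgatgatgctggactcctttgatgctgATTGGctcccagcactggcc
H2-DMb1, chr17:34153077-34153149, plus strand: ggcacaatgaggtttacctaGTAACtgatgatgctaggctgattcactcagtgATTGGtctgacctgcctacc
The X core began 81, 91 and 94 bases before the RefSeq start in these genes, and the gap to the Y box was 28, 27 and 28 bases. The GENCODE span of H2-DMb1 given below starts upstream of that RefSeq start, so the H2-DMb1 stretch lies inside it. A match is a description of the letters, not evidence that a factor was bound.

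WT libraries held 698930 to 954191 counts and Emb knockdown libraries 2024372 to 2712754, and the 18S ribosomal RNA gene Rn18s-rs5 took 3.55% to 13.0% and 29.2% to 42.5% of them. This gap moves with every comparison below. Its part in them was not tested beyond the alternatives without ribosomal RNA genes and with thinned counts given near the end. Emb itself was counted 48 times over WT and 38 times over Emb knockdown (log2 fold change -1.24 ± 0.82 SE, edgeR adjusted p = 0.529), a difference within the spread between libraries. Neuronal markers varied. Per exonic kilobase Syt1, a synaptic vesicle protein, lay at 14.1 to 23.3 times the background of olfactory, vomeronasal and trace amine receptor genes in WT and at 13.7 to 16.8 in Emb knockdown, and Tubb3, a neuronal tubulin, had 0 to 11 counts. Uchl1, a neuronal ubiquitin hydrolase, had 6, 26, 8 and 2 counts in WT and 490, 106, 160 and 0 in Emb knockdown, up to 236 times that background (log2 fold change 3.32, edgeR adjusted p = 0.342). Syt1 and the neuronal gene Elavl3 stood at -0.95 and -0.97 (edgeR adjusted p = 0.530 and 0.513). Of the 13 neuronal markers 8 were tested, 3 higher and 5 lower, with a median log2 fold change of -0.20.

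On the TMM scale, which balances libraries on the bulk of their genes, transcripts of the invariant chain and of the I-A alpha chain were higher in each of the 4 Emb knockdown libraries than in any WT one, those of the beta chains were higher with overlap, and those of H2-DMa and Ciita were not higher. By edgeR, 5 of the 7 members had a positive log2 fold change, with a median of 1.46 over the 7 against 0.04 over all 11353 genes tested. None passed an adjusted p of 0.05, nor did any other gene (0% called), while 1508 genes (13.3%) had an unadjusted p under 0.05. The DESeq2 Wald test called 749 of the 10732 genes to which it gave a p-value, Cd74 and H2-Aa among them. At an unadjusted p under 0.05, 3 of the 7 were higher, where 8.64% of all genes tested were, and none was lower. That count was 1 of 7 with library totals alone, where 1957 of the 11353 genes had an unadjusted p under 0.05 in either direction. It was 5 of 7 when scaled to the receptor genes, where 2204 of the 11353 did. The share of all genes in the higher direction alone was not taken under these scalings. All 7 members passed the filter on low counts, and none passed it through the Emb knockdown libraries alone.

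**Figure D1:**
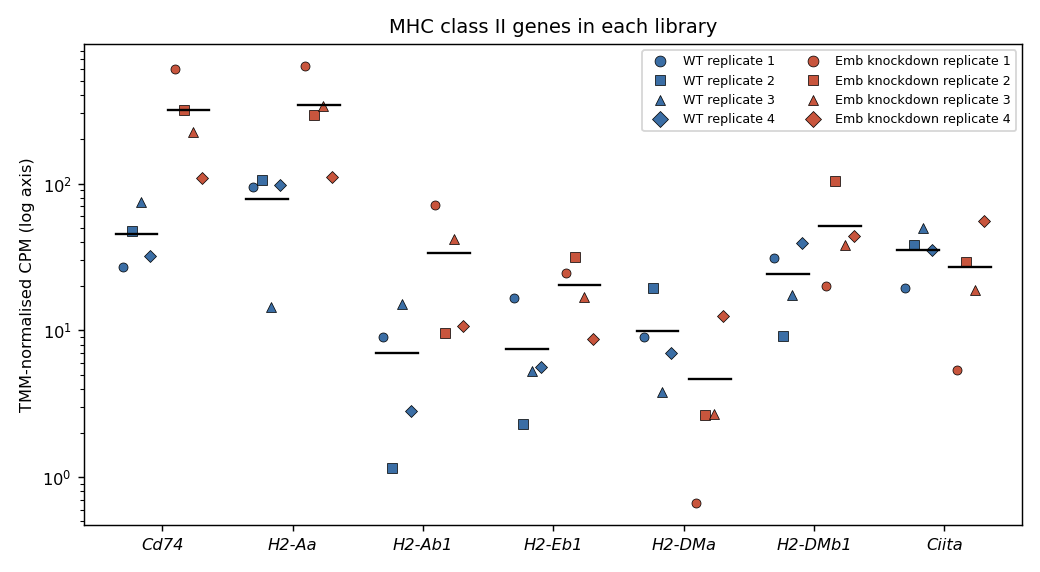
TMM-normalised CPM (counts scaled to a common library size with between-library factors, log axis) of the 7 class II genes in each of the 8 libraries, with a symbol per replicate and a bar at the group mean. Cd74 and H2-Aa show no overlap between genotypes on this scale (both overlap with library totals alone), and Emb knockdown replicate 1 is the highest library for Cd74, H2-Aa and H2-Ab1.

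Cd74 (ENSMUSG00000024610, GRCm38 chromosome 18, 60803848 to 60812652, plus strand, protein coding, exon length 1679 bases) encodes the invariant chain that chaperones class II dimers and also serves as a surface receptor for the cytokine MIF. WT replicates 1 to 4 gave 21, 41, 98 and 23 counts of it, and Emb knockdown replicates 1 to 4 gave 909, 599, 417 and 173. On the TMM-normalised CPM scale (counts over the scaled library size) these were 27.0, 47.1, 74.6 and 32.3 in WT and 606, 318, 225 and 108 in Emb knockdown. The lowest Emb knockdown library, replicate 4, therefore lay above the highest WT library, replicate 3. The means were 45.3 ± 21.3 and 314 ± 212 CPM (SD, n = 4 each), with a log2 fold change of 2.79 ± 0.79 (SE; 95% interval from 1.06 up to 4.51; edgeR adjusted p = 0.295). An exact two-sided permutation test over the 70 assignments of the libraries gave p = 0.0286 for the log2 CPM of Cd74, the smallest it can give. Groups separated in this direction in 4.03% of all genes tested. As CPM from library totals alone, Emb knockdown replicate 4 (79.0) lay below WT replicate 3 (103), and the groups overlapped.

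H2-Aa (ENSMUSG00000036594, chromosome 17, 34282744 to 34287823, minus strand, protein coding) encodes the alpha chain of I-A. In replicate order its CPM was 95.2, 106, 14.5 and 97.0 for WT, against 633, 291, 336 and 112 for Emb knockdown. WT replicate 3, the WT library with the most Cd74, held the least H2-Aa, and Emb knockdown replicate 4 lay just above the WT maximum. The means were 78.1 ± 42.7 and 343 ± 216 CPM (SD, n = 4 each; log2 fold change 2.13 ± 0.84, interval 0.29 to 3.98, edgeR adjusted p = 0.323). The exact permutation test on log2 CPM again gave p = 0.0286. With library totals alone Emb knockdown replicate 4 (81.3 CPM) lay below 3 of the 4 WT libraries, the highest of them at 109 CPM.

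H2-Ab1 (ENSMUSG00000073421, chromosome 17, 34257689 to 34269419, plus strand), the beta chain that pairs with H2-Aa, was counted far less often than its partner. Its counts were 7, 1, 20 and 2 in WT and 107, 18, 78 and 17 in Emb knockdown, or 9.01, 1.15, 15.2 and 2.81 CPM against 71.3, 9.54, 42.1 and 10.7 CPM. Emb knockdown replicates 1 and 3 lay above every WT library, while replicates 2 and 4 fell within the WT range. The log2 fold change was 2.19 ± 0.91 (interval 0.20 to 4.18, edgeR adjusted p = 0.336; exact permutation p = 0.114). Divided by receptor gene counts, the groups of H2-Ab1 just failed to overlap, WT replicate 3 and Emb knockdown replicate 2 being nearly equal.

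H2-Eb1 (ENSMUSG00000060586, chromosome 17, 34305867 to 34316674, plus strand) encodes the beta chain of I-E. It had 13, 2, 7 and 4 counts in WT and 37, 60, 31 and 14 in Emb knockdown, which was 16.7, 2.30, 5.33 and 5.62 CPM and 24.6, 31.8, 16.8 and 8.77 CPM. Only Emb knockdown replicate 4 lay within the WT range, since WT replicate 1 at 16.7 CPM was just under Emb knockdown replicate 3. The log2 fold change was 1.46 ± 0.74 (interval -0.16 to 3.07, edgeR adjusted p = 0.415; exact permutation p = 0.0571), and it was 2.26 without WT replicate 1. The antisense gene Gm20513 covers part of H2-Eb1 and had 2 and 24 counts. No source used here gives the strand setting of the counting, so reads of the pair cannot be told apart.

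The genes of the peptide exchange factor H2-DM differed in direction. H2-DMb1 (ENSMUSG00000079547, chromosome 17, 34153072 to 34160230, plus strand), its beta chain, had 30.9, 9.20, 17.5 and 39.4 CPM in WT and 19.99, 104, 38.4 and 43.9 CPM in Emb knockdown. Emb knockdown replicate 2 stood above the rest, and replicate 1, which led for the invariant chain, lay below the WT mean of 24.2 CPM. The log2 fold change was 1.09 ± 0.69 (interval -0.42 to 2.61, edgeR adjusted p = 0.514; exact permutation p = 0.171), and 0.53 without Emb knockdown replicate 2. The near-identical copy H2-DMb2 had 7 counts over WT and 28 over Emb knockdown, and reads of the pair could have been split between them.

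H2-DMa (ENSMUSG00000037649, chromosome 17, 34119541 to 34139101, plus strand), the alpha chain, was lower on average in Emb knockdown. It had 7, 17, 5 and 5 counts in WT and 1, 5, 5 and 20 in Emb knockdown, or 9.01, 19.5, 3.80 and 7.03 CPM against 0.67, 2.65, 2.70 and 12.5 CPM. The lowest 3 libraries were all Emb knockdown, but replicate 4 exceeded 3 of the 4 WT libraries. With so few counts the log2 fold change of -1.07 ± 0.90 had an interval from -3.05 to 0.92 (edgeR adjusted p = 0.633; exact permutation p = 0.229), and it was -0.44 without WT replicate 2. The annotated span of H2-DMa runs into that of Brd2 on the opposite strand, which had 232 and 943 counts, so any reads shared between them cannot be told apart.

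Ciita (ENSMUSG00000022504, chromosome 16, 10480059 to 10528418, plus strand), the transactivator that the other 6 genes depend on in antigen-presenting cells, had 15, 33, 65 and 25 counts in WT and 8, 55, 35 and 88 in Emb knockdown. Its CPM was 19.3, 37.9, 49.4 and 35.1 in WT against 5.33, 29.2, 18.9 and 55.1 in Emb knockdown. Both the lowest and the highest library were Emb knockdown, and the WT libraries lay between them. The log2 fold change was -0.39 ± 0.70 (interval -1.91 to 1.14, edgeR adjusted p = 0.854; exact permutation p = 0.400), and 0.17 when libraries were scaled to the receptor genes. Emb knockdown replicate 1, with the most Cd74 and H2-Aa, held the least Ciita. The opposite-strand gene Dexi overlaps Ciita and had 48 and 73 counts.

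**Figure D2:**
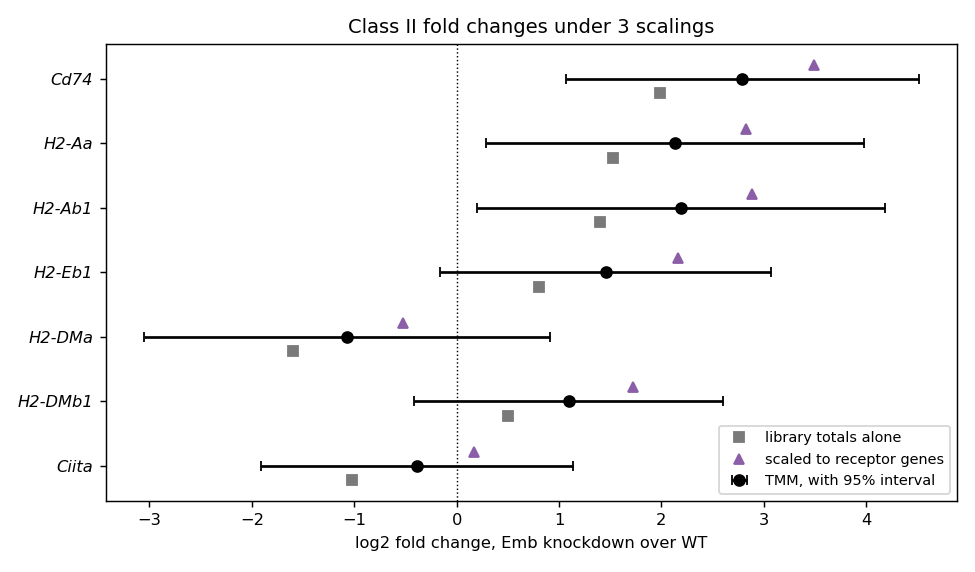
Log2 fold change of each class II gene in Emb knockdown over WT, with the edgeR estimate and 95% interval under TMM scaling (circles), and the estimates with library totals alone (squares) and when scaled to the receptor genes (triangles). The intervals of Cd74, H2-Aa and H2-Ab1 lie above 0, and the scaling shifts all 7 genes the same way.

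The scaling moved the fold changes of all genes, and the class II genes moved with them. The median log2 fold change over all genes tested was 0.04 with TMM, -0.59 with library totals alone and 0.65 when scaled to the receptor genes. Relative to that median, Cd74 stood at 2.75, 2.58 and 2.85 under the 3 scalings and H2-Aa at 2.10, 2.12 and 2.18. A scaling moves all genes by nearly the same amount, so the subtraction removes most of its shift by construction. Near-equal values under the 3 scalings are therefore not 3 separate checks. H2-Ab1 stood at 2.15, 1.99 and 2.24 and H2-Eb1 at 1.42, 1.39 and 1.52. H2-DMb1 lay between 1.06 and 1.10, H2-DMa between -1.17 and -1.01 and Ciita between -0.48 and -0.43. Before this subtraction, 5 members were higher and 2 lower with TMM and with library totals alone, and 6 were higher and 1 lower with the receptor genes.

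Levels of different genes were compared as CPM per exonic kilobase. In Emb knockdown the order was Cd74 (187 ± 126), H2-Aa (90.2 ± 57.0), H2-DMb1 (30.7 ± 21.6), H2-Ab1 (13.0 ± 11.5), H2-Eb1 (10.5 ± 5.12), Ciita (2.85 ± 2.21) and H2-DMa (1.34 ± 1.55; SD, n = 4 each). Cd74 exceeded H2-Aa and Ciita exceeded H2-DMa in 4 of 4 of these libraries, although the ranges of all neighbours overlapped. H2-Ab1 and H2-Eb1 could not be ranked, with each ahead in 2 libraries. In WT the first 3 places went to the same genes, Cd74 at 27.0 ± 12.7, H2-Aa at 20.6 ± 11.2 and H2-DMb1 at 14.4 ± 8.01, but Cd74 exceeded H2-Aa in only 2 of 4 libraries. The remaining 4 genes lay between 2.74 and 3.85 in WT and did not differ beyond their spread.

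**Figure D3:**
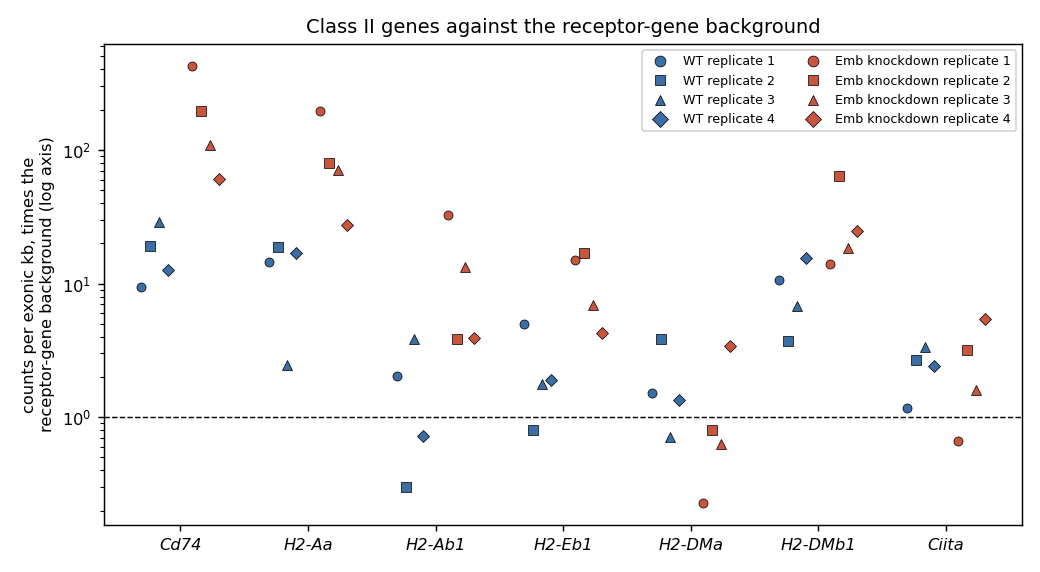
Counts per exonic kilobase of each class II gene in each library, divided by those of the olfactory, vomeronasal and trace amine receptor genes of the same library (log axis, dashed line at 1). Cd74 lies at 9.38 to 28.8 in WT and 60.7 to 425 in Emb knockdown, while H2-DMa and Ciita lie near the line in both groups.

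The olfactory, vomeronasal and trace amine receptor genes give a common low level to read the members against. In WT libraries Cd74 lay at 9.38 to 28.8 times that level, in Emb knockdown libraries 60.7 to 425 times, and H2-Aa at 2.47 to 18.8 and 27.6 to 197 times. H2-DMb1 lay at 3.69 to 15.5 and 14.0 to 64.0 times. These 3 genes were above the background in every library. H2-Ab1 lay at 0.30 to 3.84 times the level in WT but at 3.85 to 32.7 times it in Emb knockdown, and H2-Eb1 at 0.80 to 5.02 and 4.24 to 17.0 times. H2-DMa (0.72 to 3.83 and 0.23 to 3.42) and Ciita (1.18 to 3.36 and 0.66 to 5.44) stayed near it in both groups, where the median protein-coding gene lay at 0.77 to 1.25 times in WT and at up to 1.89 times in Emb knockdown. H2-DMa fell below the receptor level in libraries of both groups, H2-Ab1 and H2-Eb1 in WT alone and Ciita in Emb knockdown alone.

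Genes that act beside the 7 members were read from lists. Of the 10 lysosomal enzymes that trim antigen or the invariant chain, 9 were tested, 8 were higher and 1 lower, with a median log2 fold change of 1.62. At an unadjusted p under 0.05, 3 of the 9 were higher and 0 lower, against the 8.64% and 4.64% of all genes tested. Lgmn, the asparaginyl endopeptidase legumain, averaged 19.6 ± 8.64 CPM over WT against 502 ± 591 over Emb knockdown (SD, n = 4 each), a log2 fold change of 4.67 ± 0.99 (edgeR adjusted p = 0.275), without overlap between the groups. Ctsl, the protease cathepsin L, stood at 3.36 ± 1.297 (edgeR adjusted p = 0.322), Sppl2a, the intramembrane protease that clears the last invariant chain fragment, at 2.09 ± 0.83 (0.326), and Ifi30, the thiol reductase GILT, at 1.62 ± 0.78 (0.389). Emb knockdown replicate 1 held the most of each: without it the values were 3.42 for Lgmn, 1.69 for Ctsl, 0.88 for Sppl2a and 0.95 for Ifi30. Ctss, the main invariant chain protease of dendritic and B cells, was counted 15 times over WT and 122 over Emb knockdown and was not tested.

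Among the 15 factors that bind class II promoters or carry the interferon gamma signal to Ciita, 12 were tested, with 11 higher, 1 lower and a median of 0.65. With library totals alone the median was -0.12, and 5 were higher and 7 lower. Ifngr1, a chain of the interferon gamma receptor, had a log2 fold change of 4.22 ± 1.87 (edgeR adjusted p = 0.365) that came from 848 counts in Emb knockdown replicate 1, and it was -0.76 without that library. Irf8 and Jak2 stood at 1.10 ± 0.70 and 1.86 ± 1.22, and at 0.18 and -0.46 without Emb knockdown replicates 1 and 3. Of the DNA-binding subunits, Rfx5 was at -0.15, Nfya at 0.05 and Nfyb at 0.54. At an unadjusted p under 0.05, 2 of the 12 were higher and 0 lower, against 8.64% and 4.64% of all genes tested.

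**Figure D4:**
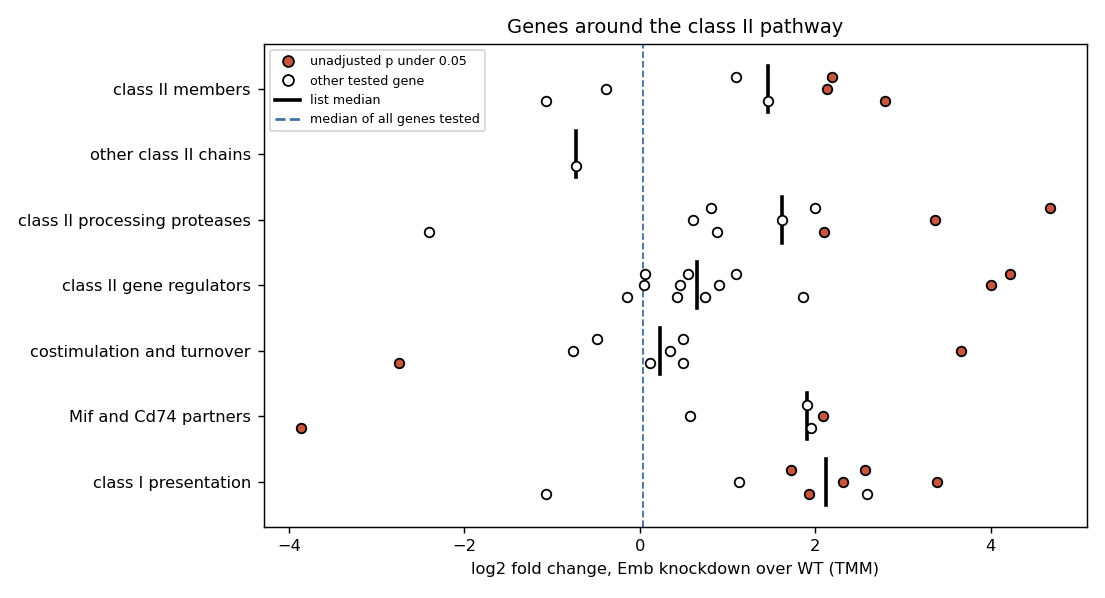
Log2 fold change in Emb knockdown over WT (TMM scaling) of every tested gene in the class II list and in 6 lists around it, with filled points at an unadjusted p under 0.05, a bar at the list median and a dashed line at the median of all genes tested. Medians run from -0.73 for the single tested gene of the other class II chains to 2.12 for class I presentation.

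Of 5 further class II chain genes in the table, H2-Ob alone was tested, at -0.73 ± 0.79 (edgeR adjusted p = 0.721). H2-Oa, H2-Ob, H2-Eb2, H2-DMb2 and H2-Ea had at most 31 counts in any library. Costimulatory molecules and the ubiquitin ligases that turn class II over had 8 of 9 genes tested, 5 higher and 3 lower, with a median of 0.23 (-0.36 with library totals alone). At an unadjusted p under 0.05, 1 of the 8 was higher and 1 lower, against 8.64% and 4.64% of all genes tested. The higher one, Cd86, stood at 3.66 ± 1.51 (edgeR adjusted p = 0.334) and was -0.48 without Emb knockdown replicate 4. Icosl, the ligand of the T cell receptor ICOS, was lower at -2.74 ± 0.97 (edgeR adjusted p = 0.311).

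Surface CD74 binds MIF with the help of CD44 and chemokine receptors, and 5 of the 6 genes of that group were tested, 4 higher and 1 lower. Mif had 104, 16.1, 3.80 and 64.6 CPM in WT and 177, 174, 160 and 285 CPM in Emb knockdown, so the groups did not overlap, although they did with library totals alone (log2 fold change 2.08 ± 0.92, edgeR adjusted p = 0.364). Cxcr4, a chemokine receptor that pairs with CD74, went the other way, with 21, 9, 12 and 34 counts in WT and 0, 11, 0 and 0 in Emb knockdown (-3.86 ± 1.25, edgeR adjusted p = 0.304; -7.82 without Emb knockdown replicate 2). Its groups did not overlap either, except when scaled to the receptor genes; with TMM 4.25% of all genes tested separated in that direction. Cd44 stood at 0.57.

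Class I presentation, which shows peptides from within the cell to CD8 T cells, was read for comparison. Of 9 genes 8 were tested, with 7 higher, 1 lower and a median of 2.12. At an unadjusted p under 0.05, 5 of the 8 were higher, against 8.64% of all genes tested. B2m, the class I light chain, stood at 2.56 ± 0.67 (edgeR adjusted p = 0.294), and the regulator Nlrc5, the class I counterpart of Ciita, at -1.07. Divided by B2m within each library, Cd74 made 1.92 to 17.7 counts per 100 B2m counts in WT and 4.15 to 6.79 in Emb knockdown, so the groups overlapped and the mean log2 ratio differed by 0.14 (exact permutation p = 0.83; adjusted 0.83 over 6 ratios). For H2-Aa the same ratio was 3.42 to 13.7 and 4.27 to 8.57 (difference -0.28, exact permutation p = 0.629; adjusted 0.754).

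Markers of the cells that usually carry class II are given beside these genes. In bulk libraries a larger number of such cells and more RNA per cell cannot be told apart. The 16 macrophage markers summed to 1741 to 4126 CPM in WT and 4399 to 7085 CPM in Emb knockdown, without overlap. With library totals alone the sums were 2398 to 4368 and 3059 to 5023 CPM, which overlap. Of the 11 tested, 8 were higher and 3 lower (5 and 6 with library totals alone), with a median of 0.58. C1qa, a complement subunit, and Mrc1, the mannose receptor, were higher in every Emb knockdown library than in any WT one (log2 fold changes 1.41 ± 0.61 and 3.19 ± 0.76, edgeR adjusted p = 0.356 and 0.275), and the fractalkine receptor Cx3cr1 was lower in every one (-2.06 ± 1.04, adjusted p = 0.414). The groups of C1qa overlapped with library totals alone, and those of Cx3cr1 when scaled to the receptor genes. C1qa and Cx3cr1 together made most of the macrophage sum in every library. C1qa averaged 1485 CPM in WT and 3937 in Emb knockdown, and Cx3cr1 1151 and 277. The 6 pan-leukocyte markers summed to 140 to 419 CPM in WT and 257 to 1332 CPM in Emb knockdown. Of the 5 tested, 4 were higher and 1 lower, with a median log2 fold change of 0.84. At an unadjusted p under 0.05, 2 of the 5 were higher, against 8.64% of all genes tested. With library totals alone 3 were higher and 2 lower, with a median of 0.12. Ptprc, which encodes CD45, lay below the TMM median at 0.16, with 7 to 33 counts in WT and 27 to 53 in Emb knockdown. None of the macrophage or pan-leukocyte markers was at 0 over a whole group.

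The other marker lists overlapped between the groups. The 10 dendritic cell markers summed to 23.2 to 128 CPM in WT and 80.2 to 103 in Emb knockdown. Of the 4 tested, 1 was higher and 3 lower, with a median log2 fold change of -0.50. The defining genes Xcr1 and Clec9a were not tested, with 6 and 1 counts over WT and 10 and 22 over Emb knockdown. Of the 22 counts of Clec9a, 18 came from Emb knockdown replicate 3. B and plasma cell markers summed to 150 to 362 and 128 to 599 CPM. Of the 5 tested, 1 was higher and 4 lower, with a median of -0.24. Mzb1 was at 0 over WT, Cd79a had 8 counts in each group, Cd79b had 7 and 57, and Ms4a1, which encodes CD20, had 15 and 89 (log2 fold change 1.72, edgeR adjusted p = 0.419). Jchain, the joining chain of secreted antibodies, had 4 counts over WT and 713, 11, 0 and 1 in Emb knockdown. It made 475 of the 599 CPM in Emb knockdown replicate 1, the library with the most Cd74 and H2-Aa. T cell and innate lymphoid markers summed to 103 to 163 and 113 to 147 CPM, with Trbc1 at 0 over WT. Enteric glia markers, the largest sum, spanned 19129 to 54748 CPM over WT, against 20323 to 29194 over Emb knockdown. The neuronal list summed to 438 to 721 and 369 to 639 CPM, epithelium to 281 to 485 and 382 to 515, endothelium to 547 to 2029 and 210 to 1436, and fibroblasts and muscle to 125 to 289.7 and 287.5 to 539.6. Of the 8 neuronal markers tested, 2 were lower in every Emb knockdown library than in any WT one, against 4.25% of all genes tested. With library totals alone 1 of the 8 was higher, and 6 were when scaled to the receptor genes. The part of any of these cells in the class II values was not tested beyond the ratios that follow.

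**Figure D5:**
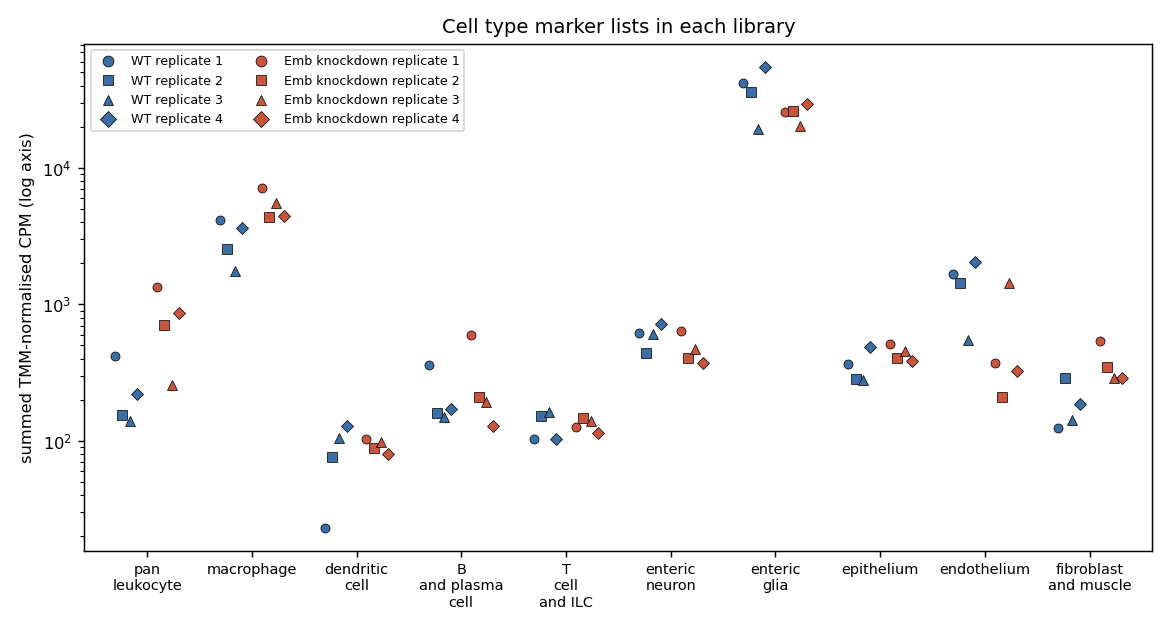
Summed TMM-normalised CPM (log axis) of 10 cell type marker lists in each of the 8 libraries. The macrophage list separates the genotypes on this scale, though not with library totals alone, at 1741 to 4126 CPM in WT and 4399 to 7085 CPM in Emb knockdown, and the dendritic, B, T, neuronal and glial lists overlap. C1qa and Cx3cr1 make most of the macrophage sum.

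Class II counts were also divided by leukocyte counts within each library, a measure chosen after the values above were seen. Most counts of the macrophage list were those of C1qa and Cx3cr1. Per 100 counts of the macrophage list, Cd74 made 0.65, 1.85, 4.28 and 0.90 counts across the WT replicates in order, against 8.55, 7.22, 4.10 and 2.46 across the Emb knockdown ones. WT replicate 3 exceeded the lower pair of Emb knockdown libraries, so the groups that separated in TMM-normalised CPM overlapped in this ratio (mean log2 difference 1.77, exact permutation p = 0.0857; adjusted 0.257 over 6 ratios). H2-Aa made 0.83 to 4.16 and 2.53 to 8.93 counts (difference 1.35, exact permutation p = 0.0857; adjusted 0.257). Against the pan-leukocyte list the ranges were 6.44 to 53.3 and 12.5 to 87.6 counts for Cd74 (difference 0.97, exact permutation p = 0.314; adjusted 0.629) and 10.3 to 68.1 and 12.9 to 130 for H2-Aa (0.56, exact permutation p = 0.543; adjusted 0.754).

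The genes whose pattern over the 8 libraries was most like that of Cd74 were found by the root mean square difference between log2 CPM values, each gene centred on its own mean. Among 10385 genes tested with a mean log2 CPM of at least 3, members left out, those nearest to it included Ogfr, the opioid growth factor receptor (0.43), Ncl, which encodes nucleolin (0.46), the AP-1 subunit Fos (0.47) and Kdelr1, a receptor that returns proteins to the endoplasmic reticulum (0.51). The median distance over all candidates was 1.74. The members themselves were farther from Cd74 than the genes just named, which were picked as the closest of all candidates, so this was likely in advance. H2-Ab1 lay at 1.02, H2-Eb1 at 1.10, H2-Aa at 1.19, H2-DMb1 at 1.51, Ciita at 2.15 and H2-DMa at 2.36. Among the 10385 candidates H2-Ab1 would rank 402, H2-Eb1 608 and H2-Aa 932. H2-DMb1 would rank 3015, Ciita 8727 and H2-DMa 9656. Ogfr had 11.2 to 31.0 CPM in WT and 56.4 to 406 in Emb knockdown.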

How the data were processed

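RNA was measured in 8 sorted-cell libraries. The authors deposited gene counts as whole numbers in 1 table, without normalization; per the submitters' processing notes, cutadapt and the build mm10 were used. No source used here gives the aligner, counting tool, strand setting or annotation. Libraries were grouped by title. Coordinates and exon lengths came from GENCODE M21 (GRCm38), where 52133 of 55414 identifiers were found. Amplified reads are not independent molecules.

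The whole table was fitted with edgeR 4.0.16 in R 4.3.3: filterByExpr defaults (minimum count 10, minimum total 15), TMM factors, robust quasi-likelihood with group as the only term, Benjamini-Hochberg adjustment over 11353 genes, threshold 0.05. Standard errors derive from the fold change and the F statistic. Log2 CPM used a prior count of 2. For single values, exact permutation tests (two-sided) ran over 70 assignments. The function was tested on simulated data. The background is the summed counts per exonic kilobase of 1478 protein-coding receptor genes.

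All 7 members are named. From each pathway list up to 4 genes were named by smallest unadjusted p, and from each marker list up to 3 by highest CPM; others were chosen after their values were seen. Members and lists were chosen with earlier results of these data known. Alternatives were other scalings, no ribosomal RNA genes, DESeq2 1.42.0, limma 3.58.1 voom, no filter, thinning, a replicate block and leaving out each library. Some genes that these rules would name are not reported here.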

Additional observations from a re-analysis of the deposited data

Results flagged for a closer look

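In groups of 4 libraries, a library was singled out where its gap to the nearest other took up more of the range of its group than Dixon's critical value. For normally distributed values chance does this in about 1 in 20 groups, and here it happened in 18 of 76. The values were CPM without a log, and many of the genes were named for a small p. The count of 18 therefore cannot be read as an excess over chance. Among the members it happened once: H2-Aa in WT replicate 3 was 14.5 CPM, against 95.2 to 106 in the other WT libraries.

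Emb knockdown replicate 1 was the far library in 7 cases, each time as the highest. It held 1385 CPM of Lgmn (others up to 280), 438 of Ctsl (up to 84.8), 151 of Sppl2a (up to 35.7) and 64.0 of Ifi30 (up to 19.5). It also held 565 CPM of Ifngr1 (up to 13.0), 119 of Irf8 (up to 32.6) and 2654 of the class I heavy chain H2-D1 (up to 357).

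Emb knockdown replicate 4 held 525 CPM of Cd86 and 285 of Mif, the highest of its group, and 14.4 of the ubiquitin ligase gene Marchf1, the lowest. Emb knockdown replicate 2 held 5.83 CPM of Cxcr4, against 0 in the others, and 79.0 of the chemokine receptor gene Cxcr2. Emb knockdown replicate 3 held 169 CPM of Jak2 and 1436 summed over the endothelium list, where the others held 210 to 370. In WT, replicate 1 held 39.9 CPM of H2-Ob and 362 summed over the B and plasma cell list, and replicate 4 held 37.9 of Irf8.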

How the results depend on the processing

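By edgeR 0 of 11353 genes passed the adjusted p, with 1508 at an unadjusted p under 0.05. The DESeq2 Wald test called 749 of the 10732 genes to which it gave a p-value. Without a filter on low counts 910 of 48530 genes were called. After thinning to 608076 counts outside ribosomal RNA 2 of 6957 were. The count was 0 by limma voom, under the other scalings and without any single library. DESeq2 called Cd74 (2.80, adjusted p = 0.00135) and H2-Aa (2.15, adjusted p = 0.0356), and edgeR without a filter called Cd74 (3.05, adjusted p = 0.0487). H2-Eb1 and H2-DMa were given no adjusted p by DESeq2. Without ribosomal RNA genes the log2 fold change was 2.79 for Cd74 and 2.14 for H2-Aa, and after thinning 2.76 and 2.02. Over all alternatives the adjusted p ran from 0.00135 to 0.536 for Cd74 and from 0.0356 to 0.616 for H2-Aa. Cd74, H2-Aa, H2-Eb1 and H2-DMb1 kept their direction under all 16 alternatives, and so did the median of the members (1.23 to 2.26 without single libraries, 0.80 to 2.16 otherwise). Ciita turned to 0.17 when scaled to the receptor genes, where the median of all genes tested moved from 0.04 to 0.65. Relative to that median Ciita stood at -0.43 with TMM and at -0.48 with the receptor genes. H2-Ab1 could be tested in 13 of the 16 and H2-DMa in 10, since they fell below the filter in the others. Same-numbered libraries shared a number and not a deviation (correlations 0.0113 to 0.0337 across genes), and not every library correlated best with its own number. A replicate block gave 0 calls and a median of 1.54. Depth limits H2-DMa, H2-Ab1 and H2-Eb1 most, with 26 to 34 counts over WT.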

Other observations

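Ratios between the chains of a dimer varied between libraries, and the highest of them rest on few counts. Per exonic kilobase H2-Aa stood at 7.15, 62.2, 0.64 and 23.3 times its partner H2-Ab1 in WT replicates 1 to 4 and at 6.00, 20.6, 5.38 and 7.08 times in Emb knockdown. The values of WT replicates 2 and 4 rest on 1 and 2 counts of H2-Ab1. WT replicate 3 was the sole library with more of the beta chain. H2-DMb1 stood at 0.97 to 11.5 times H2-DMa over WT libraries and at 7.18 to 80.4 times over Emb knockdown libraries. The highest values, 61.5 and 80.4 in Emb knockdown replicates 1 and 2, rest on 1 and 5 counts of H2-DMa. Those counts lay at 0.23 and 0.80 times the receptor gene background. Whether the chains of a dimer were counted in step cannot be read from such counts. Cd74 stood at 0.64 to 11.7 times H2-Aa in WT and at 1.52 to 2.47 times in Emb knockdown.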
